A study of Mus musculus with 2 samples.

Results

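The 9 genes described here encode miRNAs that are known from blood cells or from inflammation, and they were read out in C2C12, a mouse myoblast line. They were chosen by name, as the M21 miRNA genes Mir155, Mir146, Mir146b, Mir142, Mir142b, Mir223, Mir150, Mir451a and Mir144, and are 9 of 2202 genes in the tables. For contrast they were divided into 3 NF-kB-inducible genes (Mir155, Mir146 and Mir146b) and 6 lineage-restricted ones (the others). C2C12 was derived from the thigh muscle of a C3H mouse after a crush injury, came from ATCC, and is a single cell line, so both libraries share 1 source. The small RNA fraction (under 30 nucleotides) of total RNA was sequenced in 2 libraries from separate biosamples, numbered as biological replicates 1 and 2 of 1 group. The labels name no treatment, allele, time or culture stage, so nothing here contrasts stimulated with resting cells or myoblasts with myotubes.

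A miRNA is cut from a hairpin transcript into a duplex, of which 1 arm or both are loaded into Argonaute, and bases 2 to 8 of the loaded arm (the seed) pair with target transcripts. NF-kB is the transcription factor that inflammatory signals such as Toll-like receptor ligands activate. miR-155, cut from the non-coding transcript Mir155hg, and miR-146a are its classic miRNA targets in macrophages, where miR-155 represses Socs1 and other brakes on signalling while miR-146a feeds back on Traf6 and Irak1. miR-142 is found across blood cells, miR-223 in the myeloid lineage, miR-150 in mature lymphocytes, and miR-144 and miR-451a come from 1 erythroid transcript driven by Gata1.

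The mature sequences show which of these genes can be told apart in short reads. They are written 5′ to 3′ as in RefSeq, with the seed in capitals, and start with the inducible genes.
miR-155-5p: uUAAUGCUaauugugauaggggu
miR-155-3p: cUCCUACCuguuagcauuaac
miR-146a-5p (from Mir146): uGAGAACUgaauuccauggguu
miR-146b-5p: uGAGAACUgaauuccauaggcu
miR-142a-5p (from Mir142): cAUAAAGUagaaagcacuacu
miR-142a-3p (from Mir142): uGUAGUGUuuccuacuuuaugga
miR-142b: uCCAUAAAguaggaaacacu
miR-223-3p: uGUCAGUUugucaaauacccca
miR-451a: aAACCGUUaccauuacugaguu
miR-144-3p: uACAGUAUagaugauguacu
Among the 15 mature sequences that RefSeq lists for the 9 genes (for Mir150, miR-150-3p alone), the only seed shared with another listed mature miRNA was GAGAACU, which miR-146a-5p and miR-146b-5p have in common. These arms are identical over their first 17 bases and differ by G18A and U21C, with positions counted from the 5′ end of miR-146a-5p, and their hairpins share a stretch of 21 bases. A read that ends before position 18 cannot be assigned to either gene, so the split between Mir146 and Mir146b is uncertain. Such reads may also be missing from both counts. Reads that fit several places were 33.4% of all reads in replicate 1 and 22.8% in replicate 2. None of the 15 sequences had its first 18 bases in an M21 transcript elsewhere, on either strand. Intergenic sequence was not searched.

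Replicate 1 held 27661907 counts on the gene strand and replicate 2 held 15025315. Levels are given as CPM, the reads of a gene per 1000000 gene-strand reads. Where no read was seen, as many as 3 could have been missed, or 0.108 CPM in the first library and 0.2 CPM in the second. Mir21a alone took 230571 and 535157 CPM, which leaves fewer of each 1000000 reads for all other genes in replicate 2. The skeletal muscle marker Mir206 was present at 2559 and 1028 CPM and Mir133b at 88.0 and 20.4 CPM, while Mir1a-1, Mir133a-1 and Mir133a-2 had no read in either library and Mir1a-2 had 3 and 0. The Mir1a genes give the same mature miRNA from separate loci, as do the Mir133a genes, so reads that fit several places may be missing from their counts. The intervals below cover counting error alone, because copies made by amplification were not marked and reads are not independent.

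Of the 9 genes, 5 reached 1 CPM in both libraries, against 14.5% of all 2202 genes. These were Mir155, Mir142, Mir146, Mir150 and Mir146b. Mir223, Mir451a and Mir144 had reads in both libraries but stayed under 1 CPM, and Mir142b had none. A single gene of each group carried nearly all of its counts, Mir155 among the inducible genes and Mir142 among the lineage-restricted ones.

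**Figure D1:**
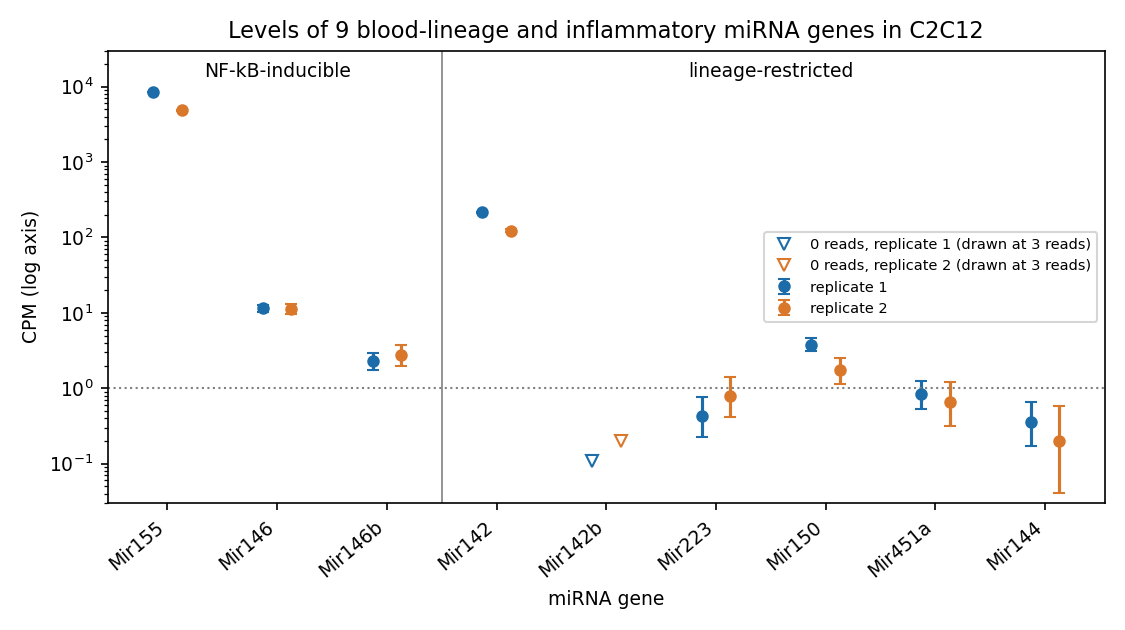
Level of each of the 9 genes in CPM (log axis) in replicate 1 (blue) and replicate 2 (orange), with exact 95% counting intervals; open triangles mark 0 reads, drawn at the level of 3 reads, and the dotted line is 1 CPM. Mir155 stands at 8517 and 4850 CPM and Mir142 at 215 and 122 CPM, and the other genes lie at 11.5 CPM or below.

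Mir155 was abundant. It had 235606 reads in replicate 1 and 72870 in replicate 2, which is 8517 and 4850 CPM (exact 95% intervals 8483 to 8552 and 4815 to 4885), or 6684 ± 2593 CPM (SD, n = 2). It ranked 25 among all genes by mean level, and 25 and 24 in the single libraries. Scaled to 1000000 counts other than those of Mir21a the libraries lay closer, at 11070 and 10433 CPM. The genes nearest to it in mean level were Mir100 and Mir322 above, at 7252 ± 4054 and 7066 ± 3016 CPM, and Mir28a and Mirlet7d below, at 6174 ± 4317 and 5979 ± 3140 CPM (SD, n = 2 for each). These SDs include the lower CPM of most genes in replicate 2, so they do not measure differences between genes within a library. In replicate 1 Mir100, Mir322 and Mir28a lay above Mir155, and Mirlet7d lay below it at 8200 CPM. In replicate 2 only Mir322 of these neighbours lay above it, at 4933 CPM. Mir155 exceeded the muscle marker Mir206 by 3.33-fold in replicate 1 and 4.72-fold in replicate 2 (exact 95% intervals 3.30 to 3.36 and 4.63 to 4.80). The hairpin lies at chr16:84714140-84714204 on the plus strand of mm10, wholly inside an annotated exon of its non-coding host Mir155hg.

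The other inducible genes were low. Mir146, which encodes miR-146a, had 318 and 170 reads, or 11.5 and 11.3 CPM (exact 95% intervals 10.3 to 12.8 and 9.68 to 13.1). It ranked 205, between Mir301b at 12.3 ± 4.37 CPM and Gm23873, an unnamed prediction, at 11.4 ± 2.67 CPM (SD, n = 2), and lies at chr11:43374397-43374461 on the minus strand with no annotated gene within 2000 bases. Mir146b, whose product shares the seed of miR-146a, had 63 and 41 reads, or 2.28 and 2.73 CPM (exact 95% intervals 1.75 to 2.91 and 1.96 to 3.70). It ranked 287, between Mir3099 at 3.58 and 1.46 CPM and Mir5100 at 2.86 and 2.13 CPM, and lies at chr19:46342762-46342870 on the plus strand in an intron of Mfsd13a. Reads on Mir146 outnumbered those on Mir146b by 5.05-fold in replicate 1 and 4.15-fold in replicate 2, with overlapping exact 95% intervals of 3.84 to 6.72 and 2.93 to 5.98. Mir155 had 618 times the reads of Mir146 and Mir146b together in replicate 1 and 345 times in replicate 2, so the NF-kB-inducible miRNAs had very different counts in the same cells. Reads that fit both Mir146 and Mir146b may be missing from their sum, so these ratios may be too high.

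Mir142, the gene found across blood cells, was the only lineage-restricted gene above 10 CPM. It had 5943 and 1835 reads, or 215 and 122 CPM (exact 95% intervals 209 to 220 and 117 to 128), a mean of 168 ± 65.6 CPM (SD, n = 2). It ranked 119, next below the endothelial gene Mir126a at 174 ± 55.8 CPM and above Mir574 at 168 ± 97.8 CPM (SD, n = 2). Scaled to 1000000 counts other than those of Mir21a it had 279 and 263 CPM. The hairpin (chr11:87756864-87756927, plus strand) lies in an intron of its host transcript Mir142hg.

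Mir142b is annotated on the other strand of the same place (chr11:87756841-87756955), and its mature sequence, printed above, is the reverse complement of part of miR-142a-3p over all of its 20 bases. No read of either library was counted on it, against 7778 on Mir142. A count of 0 here allows up to 0.0386% of the reads at this locus. Of 11 pairs of miRNA genes that overlap on opposite strands and held at least 1000 reads together, 6 had no read on the lesser strand, that of Mir142 included. In the pair of Mir24-1 and Mir3074-1 the lesser strand held 15.7% in replicate 1 and 1.61% in replicate 2. Both genes of that pair have copies elsewhere, Mir24-2 and Mir3074-2. Reads that fit several places may be missing from their counts, so these shares are uncertain. In the pair of Mir126a and Mir126b the lesser strand held 4.07% and 3.82%, the latter being the highest share of any of the 11 pairs in its library. In the either-strand column Mir142 and Mir142b are both at 0, as are Mir451a and Mir451b, so the levels of Mir142 and Mir451a can be read from the strand columns alone.

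The genes tied to a single blood lineage each stayed under 4 CPM. Mir150, the lymphocyte gene, had 105 and 26 reads, or 3.80 and 1.73 CPM (exact 95% intervals 3.10 to 4.60 and 1.13 to 2.54). It ranked 277, between Mir7654 at 2.78 ± 0.726 and Mir7655 at 2.75 ± 1.53 CPM (SD, n = 2). It lies at chr7:45121757-45121821 on the plus strand and overlaps no annotated gene, with Gm45552 starting after 95 bases on the same strand. Mir223, the myeloid gene, had 12 reads in each library, or 0.434 and 0.799 CPM (exact 95% intervals 0.224 to 0.758 and 0.413 to 1.40). Its hairpin (chrX:96242817-96242926, plus strand) lies inside an exon of the non-coding gene F630028O10Rik.

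The erythroid genes Mir451a and Mir144 lay under 1 CPM, as did Mir223. Mir451a, whose hairpin is cut by Argonaute without Dicer, had 23 and 10 reads, or 0.831 and 0.666 CPM (exact 95% intervals 0.527 to 1.25 and 0.319 to 1.22). Mir144, upstream on the same strand, had 10 and 3 reads, or 0.362 and 0.2 CPM (exact 95% intervals 0.173 to 0.665 and 0.0412 to 0.584). Mir451a outnumbered Mir144 by 2.30-fold in replicate 1 (exact 95% interval 1.05 to 5.41) and 3.33-fold in replicate 2 (0.858 to 18.8), and the second interval includes equal counts. The hairpins lie at chr11:78073170-78073241 and chr11:78073005-78073070, 99 bases apart, and Mir451b on the opposite strand of Mir451a had no read.

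By mean level the order was Mir155, Mir142, Mir146, Mir150, Mir146b, Mir451a, Mir223, Mir144 and Mir142b. The order of Mir155, Mir142 and Mir146 was the same in each library, with intervals that do not overlap. Mir150 lay above Mir146b in replicate 1 and below it in replicate 2, and Mir451a and Mir223 changed places in the same way. The intervals of Mir150 and Mir146b overlapped in replicate 2 only, and those of Mir451a and Mir223 in both libraries. The intervals of Mir223 and Mir144 overlapped in both libraries. Mir146b lay above Mir451a, Mir223 and Mir144 in both libraries, with intervals that do not overlap.

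**Figure D2:**
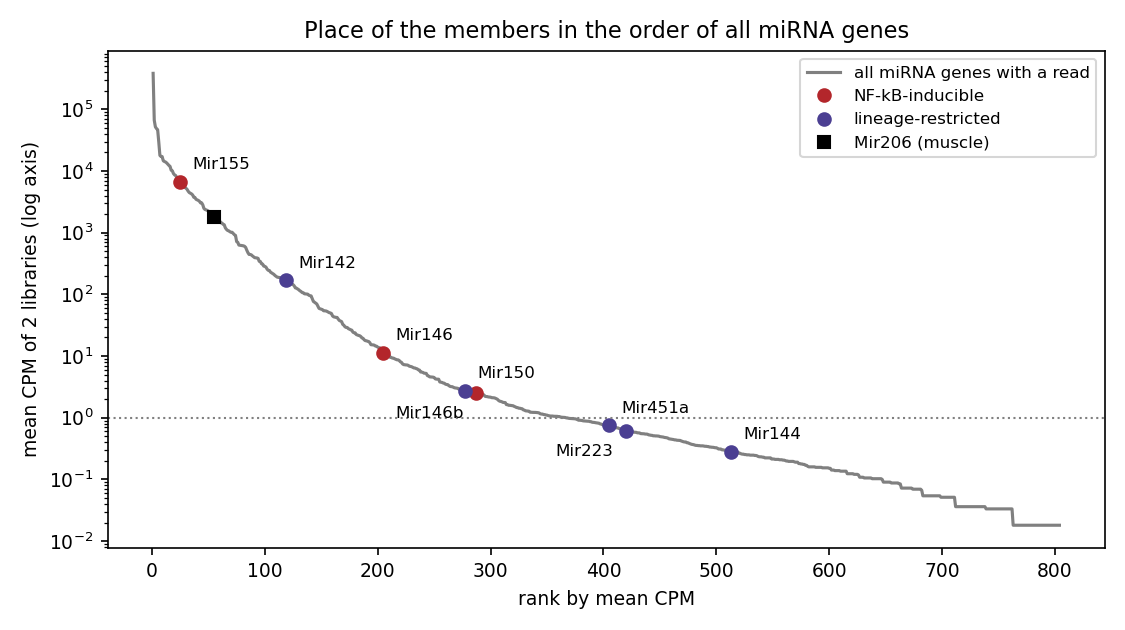
Mean CPM of the 2 libraries (log axis) against rank for all miRNA genes with a read (grey line), with inducible members in red, lineage-restricted members in purple and the muscle gene Mir206 as a black square; the dotted line is 1 CPM. Mir155 at rank 25 lies above Mir206 at rank 55, and Mir142 at rank 119 is the only lineage-restricted gene above rank 200.

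Summed over the groups, the inducible genes had 38.7 times the reads of the lineage-restricted genes in each library, with 235987 against 6093 reads in replicate 1 and 73081 against 1886 in replicate 2 (exact 95% intervals 37.8 to 39.7 and 37.0 to 40.6). The mean log2 ratio was 5.28, and such a ratio within a library needs no scaling. It is in essence the ratio of Mir155 to Mir142, which was 39.6 and 39.7. Without Mir155 the direction turned, and the lineage-restricted genes had 16.0 and 8.94 times the reads of Mir146 and Mir146b. Without Mir142 and Mir142b on the other side, the 4 remaining lineage-restricted genes summed to 5.42 and 3.39 CPM, and Mir146 and Mir146b together had 2.54 and 4.14 times their reads (exact 95% intervals 2.10 to 3.09 and 3.03 to 5.73). The genes are not replicates of a class, so these ratios describe the named genes and test nothing about NF-kB-inducible or blood miRNAs in general.

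Mir142 held 97.5% of the lineage-restricted counts in replicate 1 and 97.3% in replicate 2. It had 39.6 and 36.0 times the reads of Mir223, Mir150, Mir451a and Mir144 summed. The muscle gene Mir206 in turn had 11.6 and 8.19 times the reads of all 6 lineage-restricted genes. Mir223, Mir150, Mir451a and Mir144 each lay under 4 CPM in both libraries. Where the Mir142 reads came from was not tested.

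The other lists set these levels in context. The share of all 2202 genes at 1 CPM or more in both libraries was 14.5%, and many of the 2202 had no read. Of 12 other miRNA genes known to respond to inflammatory signals, 9 reached 1 CPM in both libraries, led by Mir21a, Mir221 at 12318 ± 6206 CPM and Mir222 at 5732 ± 2355 CPM (SD, n = 2), a pair that represses the cell cycle inhibitor p27. Outside these leading genes, and chosen after their values were seen, Mir132, which Toll-like receptor ligands induce in monocytes, stood at 524 and 317 CPM, and the macrophage-induced Mir147 at 29.6 and 19.2 CPM. Mir132 and Mir147 lay below Mir155 and above Mir146. In the same list Mir9-1 and Mir9-2 had no read in either library, and Mir9-3 had 2 and 0. These are copies at separate loci, as the Mir1a genes are, so reads that fit several places may be missing from their counts. Of 10 other genes linked to blood lineages, 8 reached 1 CPM, led by Mir130a at 10296 ± 5143, Mir196b at 5441 ± 2803 and Mir181a-1 at 630 ± 231 CPM (SD, n = 2), all of them also known outside the blood. Mir486, known from red cells and muscle and also chosen after its values were seen, was at 3.94 and 1.13 CPM and so in the range of Mir150. Mir3107, also named Mir486b, overlaps Mir486 on the opposite strand, and Mir181a-1 has a copy in Mir181a-2. Reads that fit several places may therefore be missing from the counts of Mir486 and Mir181a-1, and their levels may be too low.

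**Figure D3:**
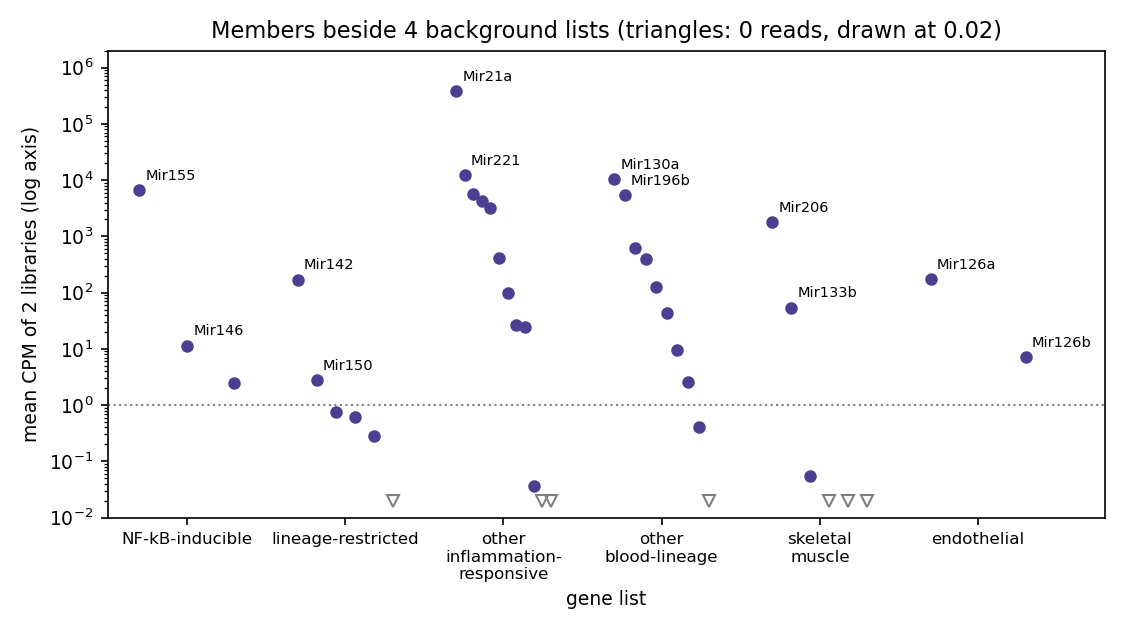
Mean CPM of the 2 libraries (log axis) of each gene in the 2 member groups and in 4 other lists, ordered from high to low within a list; triangles are genes with 0 reads in both libraries and the dotted line is 1 CPM. Mir155 lies below Mir21a and Mir130a, which lead the other inflammation-responsive and blood-lineage lists. It lies above Mir206 and Mir126a, which lead the skeletal muscle and endothelial lists. Of the 6 lineage-restricted genes, 4 lie below 1 CPM.

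The libraries were then compared to see whether the members kept their place between the biological replicates. The test compares the 2 libraries, not conditions. After TMM scaling the exact binomial test called 4 of the 8 members with at least 10 counts, all 4 higher in replicate 2, against 41.5% of 556 genes called in either direction and 24.6% called higher in replicate 2. The share called in either direction is near the background, and none of the 8 was called higher in replicate 1, against 16.9% of the 556 genes. The called members were all 3 inducible genes and, of the 5 tested lineage-restricted genes, Mir223. By library totals the split turned, with 3 members called higher in replicate 1 and none in replicate 2, where the background was 54.7% and 4.68% of 556 genes. The median log2 ratio of the 8 members was 0.40, beside 0.09 over all 556 genes. TMM scaling moved every log2 ratio by 0.90 against library totals. Of the other inflammation-responsive genes, 5 of 9 tested were called higher in replicate 2 and 4 higher in replicate 1 after TMM scaling, and 1 and 8 by library totals. Of the other blood-lineage genes, 5 and 3 of 9 tested were so called after TMM scaling, and 2 and 4 by library totals.

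Mir155 and Mir142 differed little between the libraries. Mir155 had a TMM-scaled log2 ratio of replicate 2 over replicate 1 of 0.09, or 1.06-fold (exact 95% interval 0.07 to 0.10, adjusted p = 7.01e-43 by the exact binomial test). Interval and p-value cover counting error at a fixed scaling alone, so they do not establish a difference between the libraries. The log2 ratio of Mir155 was 0.02 with DESeq2 size factors, -0.09 with library totals without Mir21a and -0.81 with library totals. Mir142 had a log2 ratio of 0.08 (exact 95% interval 0.01 to 0.16, adjusted p = 0.0742 by the exact binomial test), and with library totals -0.81, where it passed the test. The spread between replicates over all genes, edgeR's common coefficient of variation, was 34.4%. It leaves out counting error and corresponds to an SD of 0.70 for a log2 ratio of 2 libraries. Both ratios were 0.12 of that SD under TMM scaling.

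Mir146, Mir146b and Mir223 were higher in replicate 2 after TMM scaling. The log2 ratio of Mir146 was 0.88, or 1.84-fold (exact 95% interval 0.60 to 1.15, adjusted p = 2.99e-09 by the exact binomial test). Mir146b, with the same seed, had 1.16, or 2.24-fold (0.55 to 1.75, adjusted p = 0.000435 by the exact binomial test). Mir223 had 1.78, or 3.43-fold, from 12 reads in each library (0.50 to 3.06, adjusted p = 0.0139 by the exact binomial test). These are 1.25, 1.66 and 2.53 times the SD that the spread between replicates gives. That SD leaves out counting error, so the multiples are too high for genes with few reads, most of all for Mir223. All 3 were also called higher in replicate 2 with DESeq2 size factors and with library totals without Mir21a. By library totals none of the 3 passed the test, with log2 ratios of -0.02 for Mir146, 0.27 for Mir146b and 0.88 for Mir223. Mir21a, whose log2 ratio was 2.11, moved toward replicate 2 as well, and its part in these differences was not tested.

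Mir150, Mir451a and Mir144 did not pass the test after TMM scaling. Mir150 had a log2 ratio of -0.22 (exact 95% interval -0.91 to 0.39, adjusted p = 0.719 by the exact binomial test), and with library totals -1.11, which passed. Mir451a had 0.62 (-0.66 to 1.70) and Mir144 had 0.19 (-2.46 to 2.00). For Mir150 the call thus depends on the scaling. The intervals of Mir451a and Mir144 include equal levels, and neither gene passed the test by library totals.

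**Figure D4:**
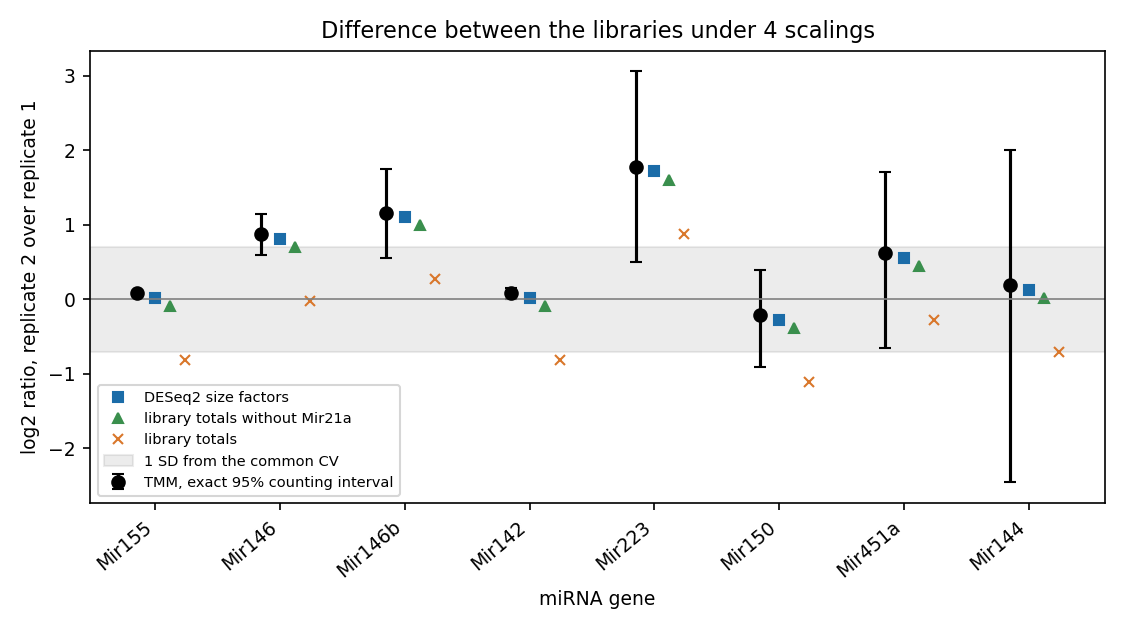
Log2 ratio of replicate 2 over replicate 1 for the 8 tested members, after TMM scaling with exact 95% counting intervals (black) and under DESeq2 size factors (blue squares), library totals without Mir21a (green triangles) and library totals (orange crosses). The grey band is 1 SD from the common coefficient of variation, without counting error. Mir146, Mir146b and Mir223 lie above the band under TMM at 0.88, 1.16 and 1.78, Mir155 and Mir142 lie near 0, and library totals shift every gene down by 0.90.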

How the data were processed

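Small RNA of the C2C12 line was sequenced in 2 libraries of a single group. The deposited tables hold raw read counts per miRNA gene, made by the authors on mm10 with GENCODE M21, per the deposited readme files, after adapter trimming, per the labels' protocols. Neither an aligner nor a counter is named in the labels or readme files. Each table has a column for either strand, 1 for the strand of the gene and 1 for the opposite strand. The gene-strand column was used. Rows that name no gene, 49.7% and 38.8% of all reads, were left out of totals.

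Gene identifiers were matched to M21 symbols, and levels are counts per 1000000 gene-strand counts (CPM). Intervals are exact (Poisson for a level, Clopper-Pearson for a share or ratio, both at 95%). With no second condition, only the libraries could be compared. That comparison used edgeR 4.0.16 TMM scaling under R 4.3.3 and a two-sided exact binomial test in scipy 1.17.1 with Benjamini-Hochberg adjustment at 0.05 over the 556 genes with at least 10 counts, and a prior count of 0.5 in ratios. The test was tried on simulated counts that held counting error alone. These had no spread between replicates, so the trial cannot show how the test behaves on these libraries. DESeq2 1.42.0 size factors, library totals, other filters, the either-strand column and each library alone were the alternatives. Library totals without Mir21a were added after seeing the data.

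Named genes are the 9 members, the pair of genes on either side of each detected member in the order of mean CPM, annotated genes within 2000 bases of a member, and up to 3 leading genes of each other list. Mir132, Mir147 and Mir486 fall outside this rule and were chosen after their values were seen. The members and lists were chosen with earlier results of these data known. Mature sequences come from RefSeq on GRCm38.p6, the assembly that mm10 names.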

Additional observations from a re-analysis of the deposited data

Results flagged for a closer look

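The opposite-strand column, which gave none of the levels above, held 4 reads at Mir150 in replicate 1, above the 3 that a count of 0 allows, and 1 in replicate 2. They made up 3.67% of the 109 reads at this locus in replicate 1 (exact 95% interval 1.01 to 9.13) and 3.70% of 27 in replicate 2 (0.0937 to 19.0). Over the 2138 miRNA genes with no miRNA gene on the other strand, opposite-strand reads were 0.0016% and 0.000873% of the reads, and 31 of these genes had at least 4 in replicate 1. There were no control libraries to compare with, and the source of these reads was not tested.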

How the results depend on the processing

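Requiring 10 CPM in both libraries left 3 members (Mir155, Mir142 and Mir146), while at least 10 reads in both gave 7, the either-strand column 4, and each library alone 5 and 5. A share over all 2202 genes is given for 1 CPM in both libraries only (14.5%), so these other numbers have no background beside them. The mean log2 ratio of inducible to lineage-restricted counts, 5.28, was 5.28 and 5.28 in the single libraries, 10.79 in the either-strand column, where Mir142 is at 0, 10.55 without Mir142 and Mir142b, and turned to -3.58 without Mir155. The number of members called between the libraries stayed between 3 and 4 under all alternatives, but all 3 calls by library totals (Mir155, Mir142 and Mir150) were toward replicate 1. Of all 556 tested genes, 41.5% were called after TMM scaling. By library totals 54.7% were called toward replicate 1 and 4.68% toward replicate 2. No such share is given for the other alternatives, so their numbers of called members cannot be set against a background. Library totals without Mir21a gave 3 calls toward replicate 2 and 1 (Mir155) toward replicate 1. Without Mir21a in the total, 8 of 9 mean levels moved by more than their SD. No paired analysis was possible because there is only 1 group. Depth limits Mir223, Mir451a and Mir144, with at most 23 reads in a library.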
